A study of Homo sapiens with 20 samples.

Results

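Antisense long noncoding RNAs (lncRNAs) of HEK293 cells, which derive from human embryonic kidney, were followed through exosomes and RNA granules. The members were chosen by their summed read counts: those annotated as lncRNA whose symbol carries the -AS suffix with 1 digit, with at least 1000 reads summed over all 20 libraries, leaving out OIP5-AS1. The rule was met by 30 genes of 1809 such symbols, of which 1151 had at least 1 read, and of 62266 named genes in all. Members closest to the threshold were PRR34-AS1 with 1085.1, SMARCA5-AS1 with 1031.9 and TRHDE-AS1 with 1013.5 reads in all, and the genes just under it were FOXD1-AS1 with 956.6, TTC28-AS1 with 931.9 and FKBP14-AS1 with 919.2.

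The study asked how the RNA content of exosomes and of RNA granules compares, and whether it differs in Huntington's disease (HD). Total RNA was sequenced with a stranded kit from 4 groups with 5 biological replicates each: exosomes of control cells, exosomes of HD-induced cells, RNA granules of control cells and RNA granules of HD-induced cells, all from the one HEK293 line. The sources used here do not say how HD was induced, or whether an allele or a construct was used. The RNA granules are cytoplasmic granule cores per the labels' protocol, and the sample titles abbreviate them as SG.

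An antisense lncRNA is transcribed from the strand opposite a second gene, here called its sense partner, and both transcripts are complementary wherever their exons overlap. Some antisense lncRNAs start next to the partner's start and run away from it (head to head), others run into the partner's far end (tail to tail), and others lie inside it. Many lncRNAs are kept in the nucleus and are present at far lower levels than mRNAs, while some are exported and can bind proteins or pair with mRNAs in the cytoplasm.

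The label was checked against GENCODE release 29, and all 30 members lay on the strand opposite their partner on the same chromosome. By position 13 pairs were head to head, with starts within 5000 bases of each other, 13 were tail to tail and 4 were classed as internal. Of these, PPM1F-AS1 lies only partly inside its partner, since it starts within PPM1F and runs past the start of PPM1F. Exons of 28 members overlapped partner exons, over 59 to 11381 bases with a median of 436, and 19 members overlapped the partner's coding sequence. The exonic bases that face partner exons made up from 0.0% of a member (NUTM2B-AS1 and ZBTB47-AS1) to 66.7% (SMARCA5-AS1), with a median of 7.97% and with 3 members above 50%. These shares cover the exons of that release only. For several members the transcript with most reads is not in it, among them EPB41L4A-AS1, PCGF3-AS1, ZNF225-AS1 and ZNF295-AS1. The sources used here do not state whether the authors' quantification used strand, and without strand reads from the facing bases cannot be told apart from reads of the partner.

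The geometry is shown here by stretches of the transcripts that the results below turn on, read 5′ to 3′ from GENCODE release 29 on GRCh38. Capitals mark a stretch of the sense partner's coding sequence and the antisense bases that face it. Lower case marks the bases just before it in the same transcript, and in the sense transcripts these can face the antisense exon too.
PCBP1-AS1-237, chr2:70088752-70088811, minus strand: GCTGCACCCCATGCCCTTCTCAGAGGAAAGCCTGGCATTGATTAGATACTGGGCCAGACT
PCBP1-201, chr2:70088752-70088811, plus strand: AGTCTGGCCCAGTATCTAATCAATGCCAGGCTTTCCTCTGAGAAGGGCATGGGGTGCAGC
TTN-AS1-203, facing bases at chr2:178535732-178535771, plus strand: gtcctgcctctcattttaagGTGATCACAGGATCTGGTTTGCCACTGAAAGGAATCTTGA
TTN-214, facing bases at chr2:178535732-178535771, minus strand: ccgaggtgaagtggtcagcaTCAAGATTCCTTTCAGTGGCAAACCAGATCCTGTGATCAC
SMARCA5-AS1-201, facing bases at chr4:143514062-143514101, minus strand: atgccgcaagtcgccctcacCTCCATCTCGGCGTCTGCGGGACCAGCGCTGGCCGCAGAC
SMARCA5-201, facing bases at chr4:143514062-143514101, plus strand: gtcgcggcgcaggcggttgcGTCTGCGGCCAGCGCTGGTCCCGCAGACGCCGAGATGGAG
In each pair the capitals are exact reverse complements over 60 bases (PCBP1) or 40 bases (TTN and SMARCA5). The 20 lower-case bases of TTN-AS1-203 come from its previous exon, so this antisense transcript is spliced into a coding exon of TTN. For the member with the largest difference between fractions, ASH1L-AS1, the stretch shown lies in its last exon, outside every exon of ASH1L in that release.
ASH1L-AS1-201, chr1:155563250-155563309, plus strand: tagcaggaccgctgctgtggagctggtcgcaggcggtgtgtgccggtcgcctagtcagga

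The libraries held 5300770 to 9039448 reads on named genes in control exosomes, 11355356 to 24514989 in control granules and 17729424 to 23898884 in HD granules. HD exosomes ranged from 713 reads in library 4 to 7405993 in library 1, and library 2 of that group had 86.6% of its reads on entries with no gene name. Library 4 had 0 reads on the members, so several results with HD exosomes are also given without it or without libraries that stand apart. All 8 HEK293 marker genes were detected in control exosomes and control granules, at a summed 759 to 794 and 330 to 467 reads per 1000000 reads on named genes (RPM). Keratinocyte markers summed to 369 to 579 RPM in control exosomes and 214 to 476 in control granules, with FLG at 0 in the granules, and red blood cell markers to 75 to 295 and 10.8 to 42.9. In HD exosomes the ranges were wider, from 495 to 1432 RPM for keratinocyte and from 0.0 to 2249 RPM for red blood cell markers. Fibroblast and endothelium markers reached 111 RPM there against 43.2 in control exosomes. These HD exosome ranges include library 4, whose 713 reads are too few to measure such a share. Marker ranges without library 4 are not given here, so the wider ranges cannot be read as more of these RNAs. HD granules held 153 to 482 RPM of keratinocyte and 6.93 to 87.7 RPM of red blood cell markers. The part of these RNAs in the results was not tested. In bulk libraries, fewer vesicles or granules of a kind and less of an RNA in each cannot be told apart.

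Summed over the 30 members, antisense lncRNAs took a larger share of the reads in control granules than in control exosomes. They took 186 ± 17.3 RPM (SD, n = 5) in control exosomes and 375 ± 24.1 RPM (SD, n = 5) in control granules, and the highest exosome library, at 212, lay below the lowest granule library, at 346. HD granules held 339 ± 47.5 (SD, n = 5), with library 3 lowest at 261 and the others between 333 and 379. HD exosomes held 157, 166, 117, 0.0 and 213 in libraries 1 to 5, or 163 ± 39.4 (SD, n = 4) without library 4. Of the 76421 member reads 88.4% came from granule libraries, against 79.5% of all reads on named genes. The threshold of the rule was passed by 27 members in the 10 granule libraries alone and by 2 (ENTPD1-AS1 and PCBP1-AS1) in the 10 exosome libraries alone. The choice of members therefore leans towards RNAs of the granules, and counts of members higher in granules are given as a description.

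**Figure D1:**
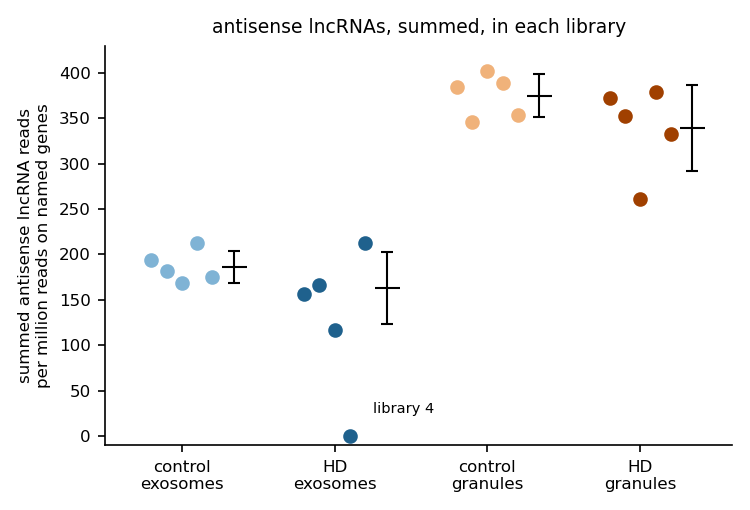
Reads on the 30 antisense lncRNAs, summed, in RPM (reads per 1000000 reads on named genes) in each of the 20 libraries (points, in library order within a group), with the mean and SD of each group (bars, HD exosome library 4 left out of its mean). The control exosome libraries sit between 168 and 212 and the control granule libraries between 346 and 402, and HD exosome library 4 is at 0.0.

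Compared per length in TPM, the authors' transcript abundance scaled for length and depth, 2 members led in every group. PCBP1-AS1 reached 6.22 ± 2.29 TPM in control exosomes, 11.4 ± 2.79 in control granules and 12.8 ± 3.10 in HD granules (SD, n = 5), and TTN-AS1 reached 5.05 ± 1.18, 11.2 ± 2.06 and 11.1 ± 1.74. In each of these groups the means of the 2 genes differed by less than the SD of PCBP1-AS1. Behind them the order changed between fractions. ENTPD1-AS1 (3.53 ± 1.27 TPM), AGAP2-AS1 (2.75 ± 0.716) and SMARCA5-AS1 (2.71 ± 0.777) followed in control exosomes, whereas ZNF225-AS1 (8.47 ± 3.33), EPB41L4A-AS1 (5.72 ± 0.888) and ASH1L-AS1 (5.71 ± 2.21) followed in control granules (SD, n = 5).

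**Figure D2:**
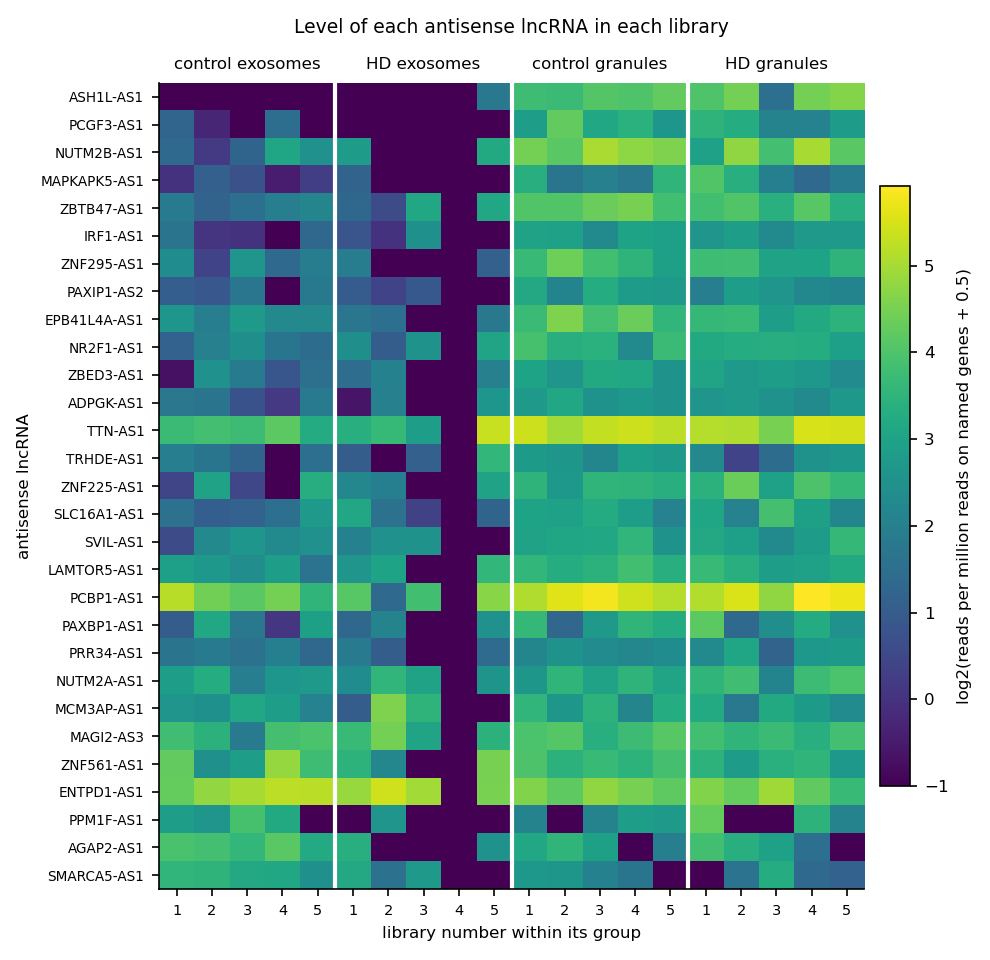
Level of 29 antisense lncRNAs (rows, ordered by their log2 fold change in control cells) in each of the 20 libraries (columns, by group), as log2 of RPM plus 0.5. ASH1L-AS1 in the top row is at the floor of the scale in all 5 control exosome libraries, and HD exosome library 4 is at the floor in every row.

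In control cells 20 of the 30 members were higher in granules, and 1, ENTPD1-AS1, was higher in the exosome libraries, by edgeR's quasi-likelihood test at a Benjamini-Hochberg adjusted p under 0.05. Over all 14777 genes tested 30.0% were called higher in granules and 32.5% the other way. The members' median log2 fold change (granules over exosomes) was 1.36 and that of all genes -0.02. In 16 members all 5 granule libraries lay above all 5 exosome libraries, as they did in 23.7% of all genes. Other lncRNAs showed a median of 1.28, with 375 of 822 higher in granules and 39 lower, and antisense lncRNAs under the read threshold one of 0.78, with 22 of 75 higher and 2 lower. Protein-coding genes had a median of -0.10, with 28.0% called higher in granules.

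ASH1L-AS1 stood furthest apart. The gene (ENSG00000235919.5, chr1:155562042-155563944, plus strand) lies head to head with ASH1L, which encodes a histone methyltransferase. Levels below are CPM, counts relative to library sizes scaled by trimmed means of M values, comparable within one comparison, and gene positions are RefSeq spans on GRCh38.p14. ASH1L-AS1 was at 0.0 CPM in each of the 5 control exosome libraries and at 11.8, 12.7, 16.2, 16.3 and 18.8 in the granule libraries. Every granule library thus had reads assigned to the gene and no exosome library did. Whether its exosome reads passed to other entries was not tested. Against a floor of 3 reads over the exosome group ASH1L-AS1 was at least 176-fold higher in granules (adjusted p = 9.91e-07, edgeR). ASH1L itself was 1.89-fold higher in granules, at 353 ± 62.2 against 186 ± 33.9 CPM (SD, n = 5, adjusted p = 3.31e-04, edgeR).

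PCGF3-AS1 came next. The gene (ENSG00000249592.7, chr4:760443-781849, minus strand) runs tail to tail into PCGF3, a Polycomb group ring finger gene. It measured 1.961, 0.345, 0.0, 2.30 and 0.0 CPM in the exosome libraries and 6.11, 18.7, 8.05, 10.5 and 5.81 in the granule libraries. The groups did not overlap, and the log2 fold change was 3.41 (SE 0.75, adjusted p = 0.00182, edgeR). PCGF3 went the other way, with a log2 fold change of -0.65 (SE 0.11, adjusted p = 2.17e-04, edgeR).

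ZBTB47-AS1 (ENSG00000230084.8, chr3:42612310-42654388, minus strand), head to head with a zinc finger gene, shares no exonic base with ZBTB47 in GENCODE release 29, although the transcript that held all its reads is not in that release. It stood at 3.23, 1.84, 2.36, 3.45 and 4.01 CPM in exosomes and at 14.3, 16.0, 19.4, 22.9 and 13.99 in granules. The gap was wide against a small spread (log2 fold change 2.55, SE 0.25, adjusted p = 3.83e-06, edgeR). ZBTB47 fell in granules, from 34.9 ± 9.73 to 14.2 ± 5.01 CPM (SD, n = 5; log2 fold change -1.30, SE 0.27, adjusted p = 0.00111, edgeR). NUTM2B-AS1 also has no exonic base facing its partner in that release, which lacks some of its transcripts with reads, such as NUTM2B-AS1-216. NUTM2B-AS1 rose from 3.65 ± 3.08 to 23.97 ± 5.98 CPM (SD, n = 5, log2 fold change 2.77, SE 0.49, adjusted p = 3.76e-04, edgeR). Reads of NUTM2B-AS1 may be shared with its near copy NUTM2A-AS1, which measured 6.31 ± 2.19 and 8.55 ± 2.50 CPM (SD, n = 5; log2 fold change 0.43, not called), so the split between these 2 is uncertain.

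MAPKAPK5-AS1, IRF1-AS1, ZNF295-AS1, PAXIP1-AS2, EPB41L4A-AS1, NR2F1-AS1 and TTN-AS1 formed the next group, with log2 fold changes from 1.47 to 2.65. ADPGK-AS1 and ZBED3-AS1 were at 1.497 and 1.501. Their partners range from a stress-activated kinase (MAPKAPK5) and the interferon-responsive factor IRF1 to a nuclear receptor (NR2F1). MAPKAPK5-AS1 was the most uneven in granules, at 8.65, 2.72, 3.53, 3.05 and 11.3 CPM against 0.577, 1.73, 1.18, 0.192 and 0.802 in exosomes. EPB41L4A-AS1, which holds the small nucleolar RNA SNORA13 within its span, rose from 4.86 ± 1.16 to 16.1 ± 5.55 CPM (SD, n = 5; log2 fold change 1.73, adjusted p = 1.40e-04, edgeR). PRR34-AS1, TRHDE-AS1, SVIL-AS1 and ZBED3-AS1 were called with adjusted p-values of 0.0302, 0.0343, 0.0417 and 0.0341 (edgeR), and each lost its call in 2 to 6 of the 18 alternatives. SLC16A1-AS1 and LAMTOR5-AS1 were called with log2 fold changes of 1.21 and 0.95, and ZNF561-AS1, MAGI2-AS3, MCM3AP-AS1, NUTM2A-AS1 and PAXBP1-AS1 lay between -0.23 and 0.88 without passing the test.

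ENTPD1-AS1 (ENSG00000226688.9, chr10:95753206-96090235, minus strand), antisense to the gene of an ectonucleotidase also known as CD39, was the 1 member called higher in exosomes. Its exosome libraries held 19.96, 28.1, 31.7, 37.4 and 37.1 CPM and its granule libraries 21.4, 18.1, 26.3, 23.2 and 18.2. The groups overlapped through exosome library 1, and the difference was small (log2 fold change -0.52, SE 0.19, adjusted p = 0.0294, edgeR). The call was lost in 12 of 18 alternatives, among them DESeq2 (adjusted p = 0.0779). ENTPD1-AS1 was the member with most reads in exosomes, with 15.5% of the member reads in the control group.

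**Figure D3:**
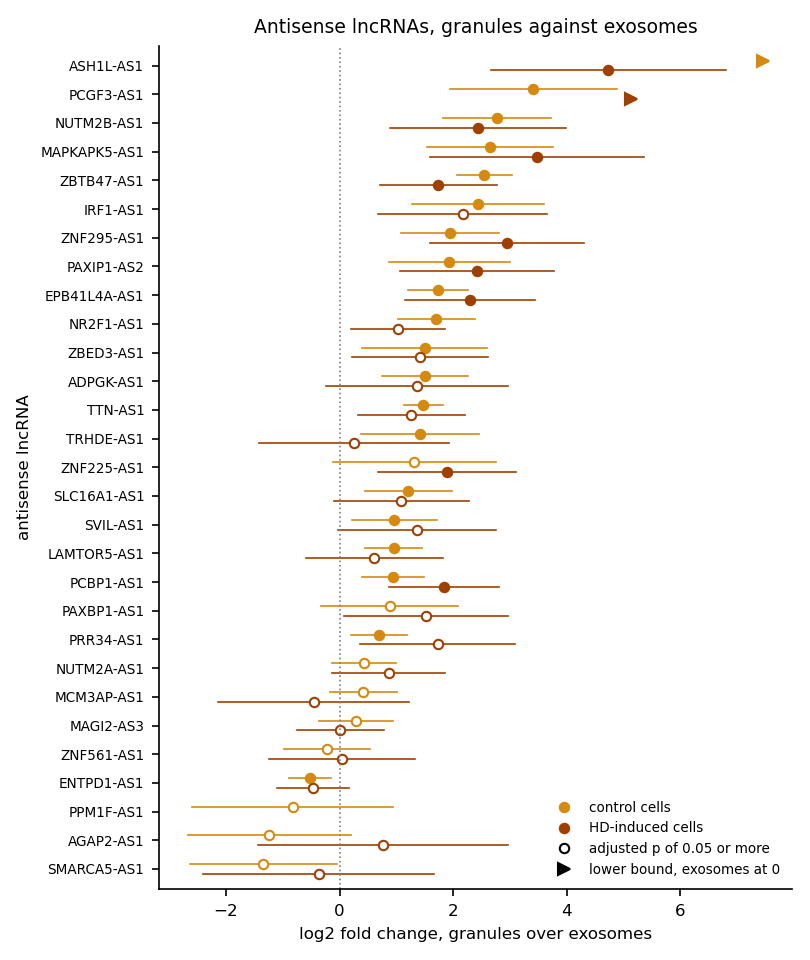
Log2 fold change of 29 antisense lncRNAs, granules over exosomes, in control cells and in HD-induced cells, with its approximate 95% interval (lines). Filled points passed an adjusted p of 0.05, open points did not, and triangles are lower bounds for genes at 0 in every exosome library. ASH1L-AS1 and PCGF3-AS1 lie furthest to the right, and ENTPD1-AS1 is the called gene left of 0.

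SMARCA5-AS1, AGAP2-AS1 and PPM1F-AS1 had negative log2 fold changes of -1.35, -1.24 and -0.83 that did not pass the test (adjusted p = 0.0936, 0.159 and 0.445, edgeR). SMARCA5 encodes a chromatin remodelling ATPase, AGAP2 a GTPase-activating protein and PPM1F a protein phosphatase. Each of the 3 was at 0 in some libraries although the other libraries of its group predicted reads. AGAP2-AS1 had 0.0 CPM in control granule library 4, where the others of its group predicted 180 reads, and 7.38, 11.1, 6.999 and 3.44 in libraries 1, 2, 3 and 5. PPM1F-AS1 was at 0.0 in control exosome library 5 and control granule library 2, with 53.4 and 75.6 reads predicted, and SMARCA5-AS1 in control granule library 5, with 58.9 predicted. Over all members there were 11 such zeros where at least 20 reads were predicted, and those outside these 3 genes were 1 each in MCM3AP-AS1 and ZNF225-AS1. Salmon, the quantifier the authors' notes name, divides reads of a shared sequence among its entries by estimation, and whether reads of these genes passed to entries with no gene name was not tested.

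Pairs were then read side by side in control cells, where 29 had both genes tested. Of the members higher in granules, 7 had a partner that was also higher, 8 a partner that passed in neither direction and 4 a partner that was lower, and PRR34, the partner of PRR34-AS1, had too few reads to be tested. Over the 29 partners tested 9 were higher and 5 lower in granules, with a median log2 fold change of 0.12, against 30.0% higher and 32.5% lower over all genes. The antisense value lay above the partner's in 19 of 29 pairs. Members were chosen by reads that came mostly from granules and partners were not, so the rule favours this side and the count is a description. PCBP1 and TTN mark the ends of the range.

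PCBP1 encodes a poly(C)-binding protein that acts on mRNA stability and translation. It fell in granules from 508, 399, 425, 474 and 324 CPM in the exosome libraries to 81.9, 87.5, 44.7, 69.5 and 48.5 in the granule libraries (log2 fold change -2.68, SE 0.21, adjusted p = 7.98e-07, edgeR). PCBP1-AS1 (ENSG00000179818.17, chr2:69962263-70088208, minus strand), whose RefSeq span ends before the stretch of PCBP1-AS1-237 shown from GENCODE, rose, with 37.5, 21.9, 17.2, 22.2 and 11.2 CPM in exosomes and 30.4, 47.3, 54.9, 43.6 and 35.4 in granules (log2 fold change 0.94, SE 0.28, adjusted p = 0.0111, edgeR). Exosome library 1 overlapped the granule range for the antisense transcript, while PCBP1 showed no overlap. Per length, PCBP1-AS1 stood at 6.73% of PCBP1 in control exosomes, against 102% in control granules.

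TTN encodes titin, the giant protein of the muscle sarcomere, and both strands rose together. TTN-AS1 (ENSG00000237298.11, chr2:178522827-178620217, plus strand) held 13.2, 14.3, 12.8, 18.0 and 9.15 CPM in exosomes and 37.1, 30.8, 37.8, 43.2 and 37.7 in granules (log2 fold change 1.47, SE 0.18, adjusted p = 1.96e-05, edgeR). TTN held 19.0, 21.0, 23.6, 22.99 and 15.4 CPM in exosomes and 96.4, 81.3, 115, 138 and 112 in granules (log2 fold change 2.41, SE 0.17, adjusted p = 3.77e-07, edgeR). Neither gene overlapped between the fractions. Since 55.1% of the exonic bases of TTN-AS1 face exons of TTN, this pair is among the 3 most exposed to reads of unknown strand, with SMARCA5-AS1 (66.7%) and AGAP2-AS1 (57.7%).

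**Figure D4:**
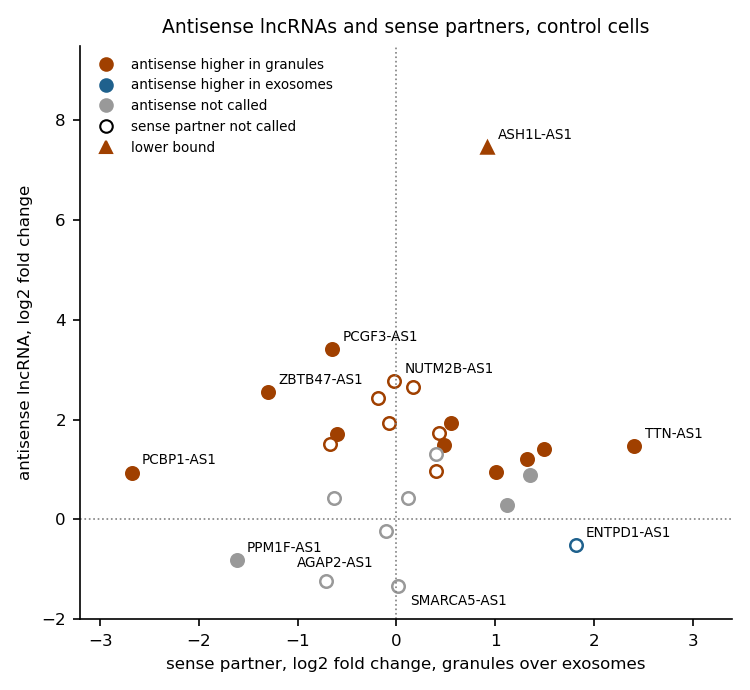
Log2 fold change (granules over exosomes, control cells) of the antisense lncRNA against that of its sense partner, for 28 pairs. Colours give the call for the antisense gene, open symbols a partner that was not called, and the triangle is a lower bound. PCBP1-AS1 sits at the left with a partner at -2.68, TTN-AS1 at the right with a partner at 2.41, and NUTM2B-AS1 lies above a partner close to 0.

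Per length, the median member reached 9.71% of its partner's TPM in control exosomes, 12.5% in HD exosomes (29 pairs), 36.2% in control granules and 24.3% in HD granules. The choice of members, and not of partners, leans towards RNAs of the granules, so these shares are given as a description. Antisense TPM exceeded that of the partner in 7 pairs in control exosomes and in 11 in control granules. Those 7 were ENTPD1-AS1, TTN-AS1, AGAP2-AS1, MAGI2-AS3, NUTM2A-AS1, NUTM2B-AS1 and PRR34-AS1, and each was above its partner in control granules too. ZBTB47-AS1 went from 46.2% of its partner in control exosomes to 396% in control granules. SLC16A1-AS1 and LAMTOR5-AS1, whose partners encode a lactate transporter and a subunit of the lysosomal Ragulator complex, rose with partners that also rose, and stood at 4.55% and 3.12% of them in control exosomes and at 4.14% and 3.31% in control granules.

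By arrangement, 9 of 13 head-to-head members were higher in granules with a median log2 fold change of 1.497, and 9 of 13 tail-to-tail members were higher and 1 lower with a median of 0.97. Of the 4 members classed as internal 2 were higher (EPB41L4A-AS1 and TRHDE-AS1), and AGAP2-AS1 and PPM1F-AS1 had the negative values given above. The ranges of the 3 arrangements overlapped, and no difference between them was tested.

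Within several members the reads also fell on different annotated transcripts. ZNF225-AS1 was 1 such case. Its 436-base transcript ZNF225-AS1-204 held 86.9%, 78.0%, 85.7%, 82.2% and 92.2% of the gene's reads in the control granule libraries. In control exosomes it held 0.0%, and the 3199-base ZNF225-AS1-202 held 50.9% of the reads there and 0.0% in control granules. The exosome shares rest on few reads of the gene, 139.4 over the control group. Those of ZNF225-AS1-202 came from control exosome libraries 2 and 5 alone (39.6 and 31.3 reads). HD granule library 3 differed from its group, with 0.0% on ZNF225-AS1-204 and 83.7% on ZNF225-AS1-202. At the level of the gene ZNF225-AS1 was not called in control cells (log2 fold change 1.31, SE 0.73, adjusted p = 0.138, edgeR).

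PCBP1-AS1, with 296 annotated transcripts of which 20 had at least 50 reads, also differed. PCBP1-AS1-228 took 29.1% of its reads in control granules and 6.63% in control exosomes. PCBP1-AS1-237, the transcript whose facing stretch with PCBP1 is printed above, took 15.8% and 0.0%, and within the granules its share ran from 0.0% in libraries 1 and 2 to 37.2% in library 5. ENTPD1-AS1-229 held 81.5% of the ENTPD1-AS1 reads in control exosomes and 60.1% in control granules, and ENTPD1-AS1-228 held 0.0% and 12.9%. The shares come from the authors' estimates for overlapping transcripts, and no test was made on them.

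**Figure D5:**
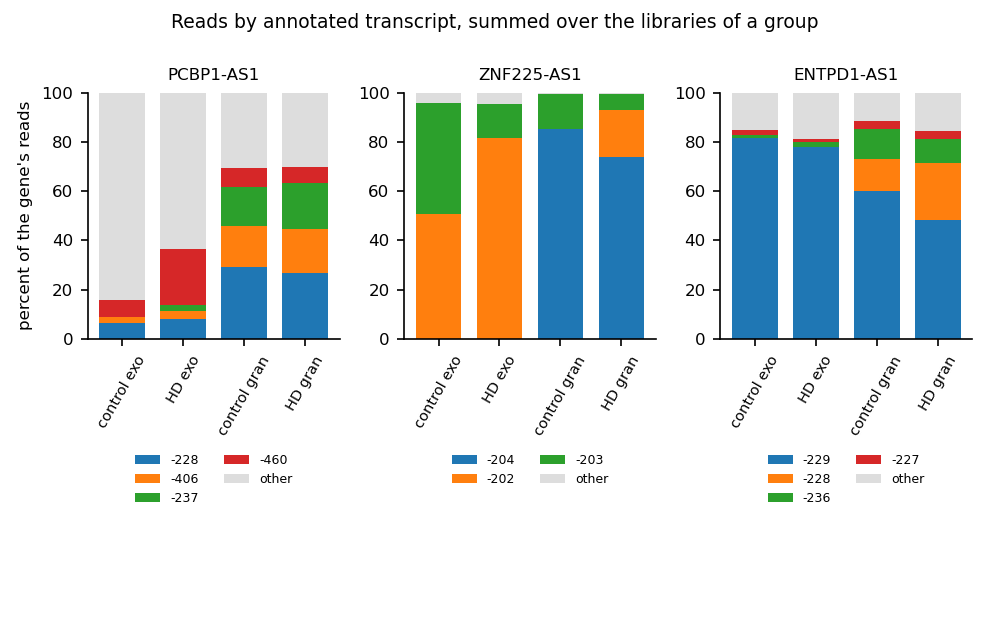
Percent of each gene's reads on its 4 most read transcripts (colours, named by their suffix; 3 for ZNF225-AS1) and on all others (grey), summed over the libraries of each group. ZNF225-AS1-204 is at 0.0% in both exosome groups and at 85.1% in control granules, and PCBP1-AS1-228, PCBP1-AS1-406 and PCBP1-AS1-237 take larger shares in granules than in exosomes.

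In HD-induced cells 11 of 29 members tested were higher in granules and 0 lower (edgeR, unadjusted p under 0.05 in 16), where 11.9% of all genes were called higher in granules and 5.77% the other way. The median log2 fold change of the members was 1.41 and that of all genes 0.17. In 9 members all granule libraries lay above all exosome libraries, against 10.2% of all genes. HD exosome library 4, with 0 reads on the members, could not lie above a granule library, so this count rests on the other exosome libraries. The count depended on the fit and on single libraries. DESeq2 and voom each gave 7, and leaving out 1 library gave 5 to 15: without HD exosome library 2 it was 6, without library 3 it was 7 and without library 4 it was 8, and without HD granule libraries 2, 4 and 5 it was 5, 6 and 6. Without HD exosome libraries 2 and 4 and HD granule library 3 it was 12 of 30. The 11.9% of all genes belongs to the main fit. Shares of all genes in these alternatives are not given here, so a change of the members alone cannot be read from their counts. In the main fit other lncRNAs were higher in granules in 192 of 783 cases (24.5%).

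Those called included PCGF3-AS1, ASH1L-AS1, MAPKAPK5-AS1, ZNF295-AS1, NUTM2B-AS1, PAXIP1-AS2, EPB41L4A-AS1, ZNF225-AS1, PCBP1-AS1 and ZBTB47-AS1. The call was lost in 11 of 18 alternatives for NUTM2B-AS1 and ZNF225-AS1, in 8 for ZBTB47-AS1, in 7 for PAXIP1-AS2, in 6 for MAPKAPK5-AS1, in 3 for PCBP1-AS1, in 1 each for PCGF3-AS1, ZNF295-AS1 and EPB41L4A-AS1, and in 0 for ASH1L-AS1. PCGF3-AS1 was at 0.0 CPM in all 5 HD exosome libraries and at 13.7, 14.6, 4.37, 5.67 and 10.1 in the HD granule libraries, at least 34.9-fold higher against a floor of 3 reads over the exosome group (adjusted p = 0.00360, edgeR). ASH1L-AS1 was at 0.0 in HD exosome libraries 1 to 4 and at 3.67 in library 5, with 19.9, 34.8, 2.77, 33.4 and 38.5 in the granules. Granule library 3 was low for this gene and lay under exosome library 5, and the log2 fold change was 4.73 (SE 1.05, adjusted p = 0.0102, edgeR). With 1 library left out it ran from 4.07 to 10.95, the highest without exosome library 5, which leaves the exosome group at 0 and the fitted value without a bound. PCBP1 again fell (log2 fold change -1.89, SE 0.54, adjusted p = 0.0290, edgeR) while PCBP1-AS1 rose (1.84, SE 0.49, adjusted p = 0.0221, edgeR).

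Between HD-induced and control cells no member passed the test in either fraction in the main fit. Without the count filter 1 member was called lower in HD exosomes. In exosomes 0 of 25 members were called, as were 0.0% of all 12936 genes tested (edgeR). At an unadjusted p under 0.05 there was 1 member, AGAP2-AS1, and DESeq2 and voom called 0. AGAP2-AS1 measured 18.4, 17.6, 14.49, 21.3 and 11.2 CPM in control exosomes and 12.6, 0.0, 0.0, 0.0 and 6.43 in HD exosomes, a log2 fold change of -1.52 with a 95% interval from -2.78 to -0.25 (adjusted p = 0.598, edgeR). The groups overlapped through HD exosome library 1. Without library 4 the log2 fold change was -1.52, and with 1 library left out it ran from -2.55 (without HD exosome library 1) to -1.19 (without library 3). The other members had log2 fold changes from -2.38 (PPM1F-AS1) to 0.80 (TRHDE-AS1). The PPM1F-AS1 value rests on library 2, the 1 HD exosome library with reads of it, and ran from -8.23 (without library 2) to -1.69 with 1 library left out. Of the 25 members tested 1 had an approximate 95% interval within 1 log2 unit of 0 on both sides.

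Granules gave narrower intervals. Of the 30 members 0 were called, as were 0.0% of all 16750 genes (edgeR), 0 members had an unadjusted p under 0.05, and DESeq2 and voom called 0 members. Their log2 fold changes, HD-induced over control, ran from -0.54 to 0.80 with a median of -0.06, and 13 were positive. In 17 of the 30 the approximate 95% interval lay within 1 log2 unit of 0. EPB41L4A-AS1 had the lowest value, at 15.7 ± 5.51 CPM in control and 10.8 ± 3.19 in HD granules (SD, n = 5; log2 fold change -0.54, 95% interval -1.12 to 0.04). ZNF225-AS1 was at 9.26 ± 1.95 and 14.2 ± 6.66 CPM (log2 fold change 0.61, 95% interval -0.04 to 1.27). Both intervals include 0.

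The difference between the HD effect in granules and that in exosomes was fitted as an interaction over all 20 libraries. It was called for 0 of 30 members and for 0.0186% of all 16154 genes (edgeR), with 0 members by DESeq2 and by voom. At an unadjusted p under 0.05 there were 2 members, ASH1L-AS1 (log2 -5.73, SE 2.08, adjusted p = 0.875) and PCGF3-AS1 (log2 5.95, SE 2.50, adjusted p = 0.875, edgeR). Both rest on groups at or near 0 in exosomes. ASH1L-AS1 had reads in 1 HD exosome library and in no control exosome library, and PCGF3-AS1 in 3 control exosome libraries and in no HD exosome library. Without HD exosome library 5, the ASH1L-AS1 value was 0.38 (adjusted p = 1.00, edgeR). The PCGF3-AS1 value was 1.54 with DESeq2 and -0.051 with voom.

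The mRNAs of proteins that bind double-stranded RNA, of nuclear RNA decay factors and a set of nuclear noncoding RNAs were compared in the same fit, as pairing of antisense and sense strands can form double-stranded RNA and nuclear decay limits many antisense transcripts. Of 20 double-stranded RNA binding genes tested in control cells 2 were higher and 10 lower in granules, with a median log2 fold change of -0.34, where 30.0% of all genes were higher and 32.5% lower. TARBP2 (-1.39), a Dicer partner, and ILF2 (-1.34), STAU1 (-1.14) and SND1 (-0.80) were among those lower. Of 22 decay and retention genes 5 were higher and 7 lower, shares near those of all genes, among them EXOSC8 (1.40) and EXOSC5 (-2.05), both subunits of the RNA exosome (a nuclease complex that shares only its name with the vesicles), and ZFC3H1 (1.33) and ZCCHC8 (1.03), which belong to complexes that deliver nuclear RNA to it. Of 5 nuclear noncoding RNAs 2 were higher, the lncRNA MALAT1 (0.85) and SCARNA5 (6.41), a small Cajal body RNA. The third called, RN7SK, a small nuclear RNA, was listed at 6861 ± 3406 CPM in exosomes and at 0 in every granule library (SD, n = 5), and whether its granule reads passed to other entries was not tested. In HD-induced cells the 3 sets gave 1 higher and 1 lower of 20, 3 higher and 0 lower of 22, and 1 higher and 0 lower of 3 (edgeR), where 11.9% of all genes were higher and 5.77% lower. Between HD-induced and control cells none of their genes was called in either fraction (edgeR, DESeq2 and voom), with 2 double-stranded RNA binding genes at an unadjusted p under 0.05 in exosomes and 0 in granules.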

How the data were processed

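Trimmomatic, cutadapt, FastQC and Salmon were run on GRCh38.p14, per the submitters' processing notes; the sources used here do not state versions, strand setting or annotation release. The authors deposited an expected count and a TPM per transcript. Each file listed 921552 entries, 669597 of them without a gene name and left out of gene tests. Expected counts were summed per gene and rounded, filtered with filterByExpr, scaled by TMM and tested with edgeR 4.0.16 (robust quasi-likelihood) in R 4.3.3, with limma 3.58.1 (voom) and DESeq2 1.42.0 as alternatives. P-values were adjusted by Benjamini-Hochberg over all genes of a comparison. SEs were derived from the log2 fold change and the F statistic of the test, and the 95% intervals assume a normal distribution. With so few libraries these intervals are approximate and can be too narrow. That of SMARCA5-AS1 in control cells ran from -2.64 to -0.05 at an unadjusted p of 0.064 (edgeR). The fit was tested on simulated counts for the comparison of control granules and control exosomes only, with the same spread for every gene. Comparisons with HD-induced cells, and so the uneven depth of HD exosomes, were not simulated.

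One member and 1 marker gene are counted here but not reported by name. The members, gene lists and tests were chosen with earlier results of these data known. Named members were, per comparison and direction, up to 8 called with the largest fold change and a mean CPM of at least 5 in one of the groups (otherwise the 5 smallest p), the 8 highest mean TPM per group, the 3 smallest interaction p, those next to the threshold, those at 0 in a whole group, their partners, and up to 4 genes per list. A library at 0 is given as its value, and bounds use 3 reads over the group and cover counting error only.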

Additional observations from a re-analysis of the deposited data

Results flagged for a closer look

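In 8 of 92 groups of 4 or 5 library values 1 library lay far from the rest of its group by Dixon's test. For normally distributed values chance does this in about 1 in 20 groups, so several would be marked with no outlier at all. That rate does not hold for groups made mostly of zeros. Where all other libraries are at 0, as for ASH1L-AS1, MAPKAPK5-AS1 and PPM1F-AS1 in HD exosomes, any library with reads is marked. Values are in RPM, reads per 1000000 reads on named genes. In HD exosomes, ASH1L-AS1 was at 2.91 in library 5 and at 0.0 in the others, TRHDE-AS1 at 11.4 in library 5 with the others from 0.0 to 1.66, IRF1-AS1 at 5.06 in library 3 with the others from 0.0 to 1.28, MAPKAPK5-AS1 at 1.79 in library 1 with the others at 0.0, and PPM1F-AS1 at 5.57 in library 2 with the others at 0.0. In control granules, ZNF225-AS1 was low in library 2 (5.89, the others at 9.85 or above) and IRF1-AS1 was low in library 3 (4.45, the others from 7.05 to 7.50). In HD granules, SMARCA5-AS1 was high in library 3 (9.31, the others from 0.0 to 2.59). HD granule library 3 is also the library in which the reads of ZNF225-AS1 fell on another transcript. Their causes were not tested.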

How the results depend on the processing

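In control cells the count of members higher in granules (20) ran from 18 to 20 when 1 library was left out. The count higher in exosomes (1) was 0 with RLE size factors, upper-quartile factors, DESeq2, no count filter and library sizes from all entries. It was 2 with voom and 0 to 1 with 1 library left out. The ENTPD1-AS1 call depends on the scaling and on single libraries. It was lost without control granule library 4 or 5 (adjusted p = 0.103 and 0.149, edgeR), where the 1 member called higher in exosomes was another. RLE moved the median log2 fold change of all genes from -0.02 to 0.09 and that of the members from 1.36 to 1.48. In HD-induced cells the 11 higher in granules became 7 with DESeq2, 7 with voom and 5 to 15 with 1 library left out, and over all genes RLE changed 1720 higher and 833 lower to 2459 and 577. Without a count filter 1 member was lower in HD exosomes than in control exosomes. In control cells a read threshold of 500 gave 33 higher and 2 lower of 65 members tested. One of 2000 gave 9 higher and 1 lower of 14, and the main one of 1000 gave 20 higher and 1 lower of 30. The numbers of genes differ by construction. All were read from the same fit, where 30.0% of all genes were higher in granules and 32.5% lower. The interaction of ASH1L-AS1 ran from -6.49 to 0.38 with 1 library left out, changing sign without HD exosome library 5, and that of PCGF3-AS1 changed sign with voom (-0.051, adjusted p = 0.998); the cause was not tested. Same-numbered libraries correlated from -0.138 to 0.454. All 5 pairs were positive between granules and exosomes of HD-induced cells (0.037 to 0.212), but in no comparison were all over 0.1, so the numbers were not taken as pairs. With the replicate number as a block the counts were 18 higher and 2 lower in control cells and 13 higher in HD-induced cells, and 0 in the HD comparisons. Upper-quartile factors were not run where HD exosomes enter, since the factor of library 4 is 0. Depth limits HD exosomes most.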
